A study of Homo sapiens with 4 samples.

Results

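Chromosome 19 is the human chromosome richest in zinc finger genes, and its EZH2 peaks were examined here in HEK293 cells with a wild-type or a mutant histone H3.1. All peaks on chromosome 19 were taken, 785 of 31077 in the H3.1-WT list and 540 of 35016 in the H3.1-K27M list, or 1325 of 66093 in all. They were divided by peak midpoint among 3 zones of fixed hg19 coordinates, chosen with earlier results of these data known. The proximal cluster was 4.6 Mb of the short arm beginning at 20 Mb. The distal cluster was 7.7 Mb of the long arm ending 28983 bases before the chromosome's end, and the remaining 46.8 Mb formed the rest. The proximal cluster held 13 and 7 peaks (H3.1-WT and H3.1-K27M, in that order here and below), the distal cluster 224 and 165, and the rest 548 and 368.

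EZH2 is the methyltransferase subunit of PRC2, the Polycomb complex that marks silent developmental genes with methylation of lysine 27 on histone H3. In the K27M histone this lysine is a methionine. KRAB zinc finger genes encode DNA-binding repressors, many of which recruit TRIM28 and a lysine 9 methyltransferase to transposable elements. The genes stand in tandem arrays on chromosome 19, and these arrays are themselves known for lysine 9 methylation, a silencing system separate from Polycomb. In the RefSeq gene list of GRCh38.p14, 265 of 1451 protein-coding genes on chromosome 19 (18.3%) had a symbol formed from ZNF, ZFP, ZSCAN, ZIM or ZIK and a number. These were 47.2% of the 562 such symbols in the genome. The distal interval also holds other gene families, among them the leukocyte receptor genes of 19q13.42.

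HEK293 is an established line of human embryonic kidney origin. Both groups of cells carried a lentiviral H3.1 transgene, selected with G418 and induced with doxycycline, and differed by genotype, H3.1-WT or H3.1-K27M. The sources used here do not say whether a line was 1 clone. The peak names of the H3.1-K27M list and the titles of its libraries read H31, without the mutation, and the genotype was taken from the genotype label. CUT&RUN, which cuts and releases the DNA around an antibody bound in permeabilised cells, was run once per genotype for EZH2 and once with the anti-rabbit HRP secondary antibody alone, 4 libraries in total. Each EZH2 library was compared by the authors' peak caller with the HRP library of the same genotype, so the background enters only through those calls. Since a group is 1 library, differences between genotypes were not tested and have no replicate check. The 95% intervals given below cover counting error alone and take each peak as an independent event.

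A peak has a width, a fold enrichment over background and a −log10 q value, the caller's false discovery rate on a log scale, all as the authors deposited them. The lowest −log10 q was 1.01 and 1.00. The lists contain no read counts, so depth is unknown, and peak number and strength both depend on it. In neither list could the identity of the cells be checked from expression. The files carry no gene names, and no hg19 annotation or sequence was used here, so regions are given by position and Giemsa band.

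The proximal and the distal interval lay on opposite sides of the rest of the chromosome in EZH2 coverage. In H3.1-WT the distal cluster had 29.1 peaks per Mb (25.4 to 33.2), the rest 11.7 (10.7 to 12.7) and the proximal cluster 2.83 (1.505 to 4.83). In H3.1-K27M the densities were 21.4 (18.3 to 24.96), 7.86 (7.08 to 8.70) and 1.52 (0.612 to 3.14), in the same order. The intervals of the 3 zones did not overlap in either list. The distal density was 2.49 times that of the rest for H3.1-WT (2.12 to 2.91) and 2.73 times for H3.1-K27M (2.26 to 3.29). The proximal density was 0.242 times that of the rest (0.128 to 0.416) in H3.1-WT and 0.194 times (0.0773 to 0.403) in H3.1-K27M. Neighbouring peaks were not evenly spaced, which the intervals do not cover: 25.6% and 29.9% of gaps between distal peaks were at most 5000 bases long, against 12.6% and 16.1% in the rest.

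**Figure D1:**
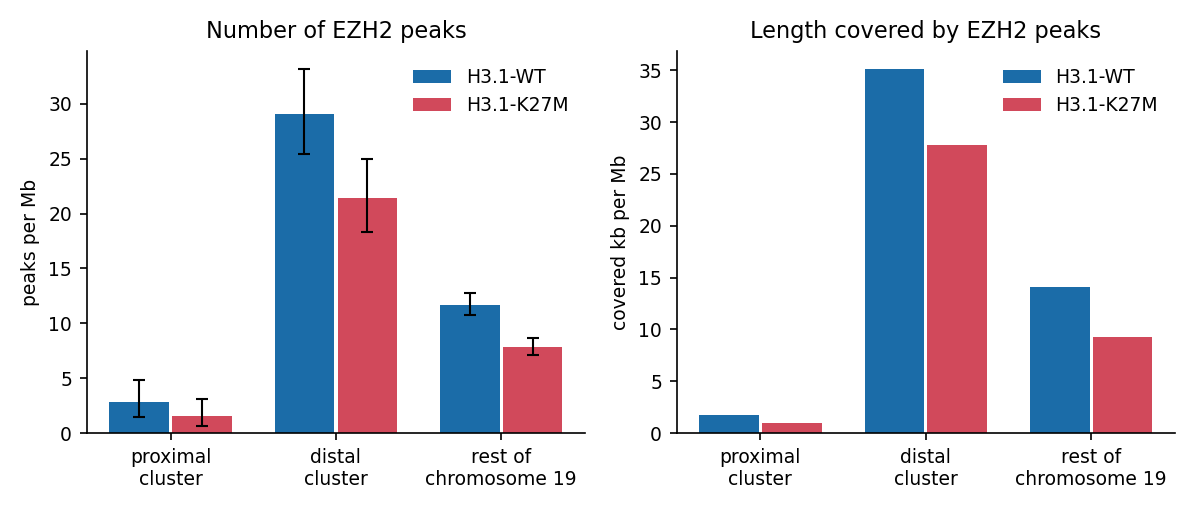
Peaks per Mb (left) and covered kb per Mb (right) in the 3 zones of chromosome 19, 1 library per bar. Error bars, drawn at left only, are exact 95% Poisson intervals for counting error. The distal cluster is highest and the proximal cluster lowest in both lists, and H3.1-K27M is below H3.1-WT in each zone.

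Covered length followed the same order. Peaks covered 3.51% and 2.78% of the distal cluster, 1.41% and 0.931% of the rest, and 0.178% and 0.0998% of the proximal cluster. With 13.0% of the chromosome's length, the distal cluster thus held 28.8% and 32.7% of its covered bases. With 7.78% of the length, the proximal cluster held 0.869% and 0.701%. Leaving the centromere bands 19p11 and 19q11 out of the rest raised its density to 12.7 and 8.50 peaks per Mb, still far from both clusters.

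The proximal cluster contained few peaks, and in H3.1-WT they were mostly short. Its 13 H3.1-WT peaks were 261 to 1603 bases wide, with a median of 416 bases against 778.5 bases in the rest. Of these, 7 were under 500 bases wide. The 7 H3.1-K27M peaks were 301 to 947 bases wide, with a median of 649 bases, close to the 640.5 bases of the rest. No peak of either list reached 5000 bases there. Median fold enrichment was 3.54 and 3.36, close to 3.62 and 3.39 in the rest. The peaks lay far apart, with a median gap of 169 kb and 421 kb, against 41.3 kb and 43.2 kb in the rest. The stretch chr19:22067441-23456688, 1.39 Mb long, carried no peak in either list. After the gap at the centromere it was the longest such stretch on the chromosome.

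Only 3 proximal sites were shared between the genotypes, 3 of 13 and 3 of 7 peaks. Over the whole genome 36.0% of H3.1-WT and 31.6% of H3.1-K27M peaks were overlapped by the other list. On the other autosomes together the shares were 34.5% and 34.8%. At chr19:20162658-20163446 the H3.1-WT peak had a fold enrichment of 3.84 and a −log10 q of 2.71, and the H3.1-K27M peak (chr19:20162186-20163132) had values of 4.36 and 3.15. At chr19:21105888-21106303 the H3.1-WT peak was weak, with a −log10 q of 1.38, while the H3.1-K27M peak within chr19:21106061-21106361 was the strongest of its 7, at 4.54 and a fold enrichment of 5.13. The third, chr19:21786930-21788125, had −log10 q values of 1.74 and 1.24. The remaining 10 H3.1-WT and 4 H3.1-K27M peaks had no partner. Among those of H3.1-WT alone, the highest fold enrichments were 4.86 (chr19:21511885-21512197), 4.48 (chr19:20011188-20012001) and 3.90 (chr19:21688418-21688678). Among those of H3.1-K27M alone they were 3.66 (chr19:20150210-20150743), 3.36 (chr19:23869761-23870341) and 3.28 (chr19:23940936-23941686).

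A pair of positions beside the centromere combined a low fold enrichment with a high −log10 q. The only strong proximal peak, meaning a −log10 q of 5 or more, was chr19:24184471-24186073 in H3.1-WT. Strong peaks were 6.78% and 1.87% of the 2 lists over the whole genome. This peak reached a −log10 q of 24.8 with a fold enrichment of only 3.64 and had no H3.1-K27M partner. The other, chr19:27732026-27732689 on the long-arm side, had a −log10 q of 12.2 and a fold enrichment of 1.14 in H3.1-WT. H3.1-K27M had a peak inside it (chr19:27732325-27732658) with values of 5.66 and 1.11. Of the 22 H3.1-WT peaks on the chromosome with a −log10 q of at least 10, the other 20 had a fold enrichment of at least 6.93. These positions bound the longest stretch without a peak in either list, chr19:24186074-27732025, 3.55 Mb long, which spans the centromere. What set their values was not tested.

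**Figure D2:**
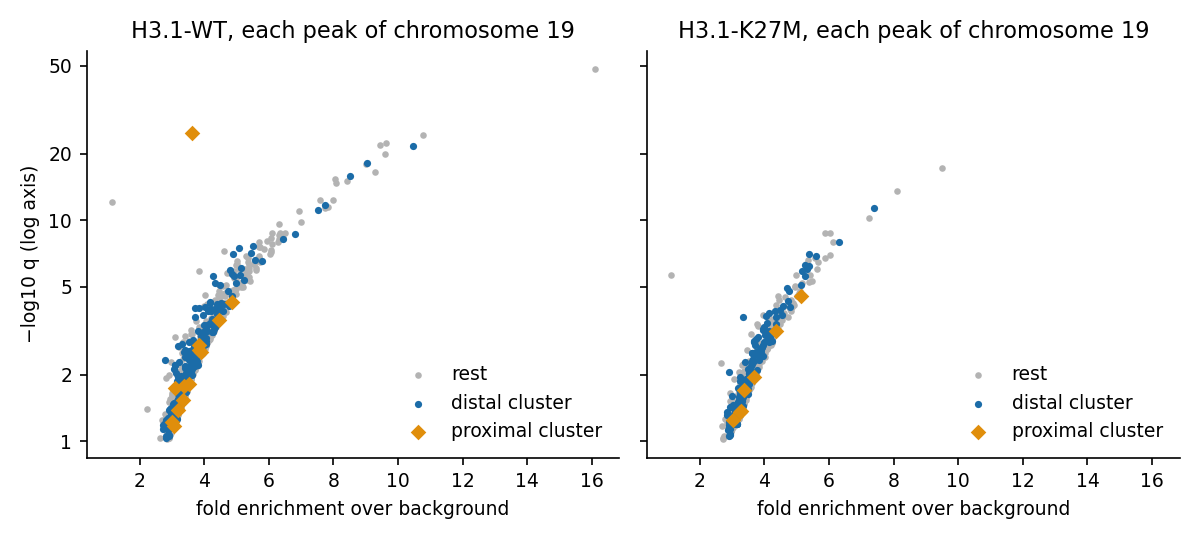
Fold enrichment (linear axis) against −log10 q (log axis) for each EZH2 peak of chromosome 19, H3.1-WT left and H3.1-K27M right, coloured by zone. Proximal peaks lie along the lower part of the main band of points, up to a fold enrichment of 4.86 at left and 5.13 at right, and 1 H3.1-WT peak lies off it at a fold enrichment of 3.64 and a −log10 q of 24.8. A peak of the rest lies near a fold enrichment of 1 in each list.

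Coverage of the distal cluster was uneven and peaked in the middle band. The interval is made of 19q13.41, 19q13.42 and 19q13.43. Band 19q13.42 had 105 and 91 peaks, 38.9 and 33.7 per Mb, and 56.2 and 54.9 covered kb per Mb. It was the most densely covered band of the chromosome in both lists, and held 56.1% and 69.2% of the covered length of the 3 bands with 34.9% of their length. Band 19q13.41 had 51 and 39 peaks, with 23.5 and 17.9 covered kb per Mb. Band 19q13.43 had 68 and 35 peaks, with 23.7 and 9.45 covered kb per Mb. On these values 19q13.43 lay well above the rest of the chromosome in H3.1-WT (14.1 kb per Mb) and near it in H3.1-K27M (9.31 kb per Mb).

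**Figure D3:**
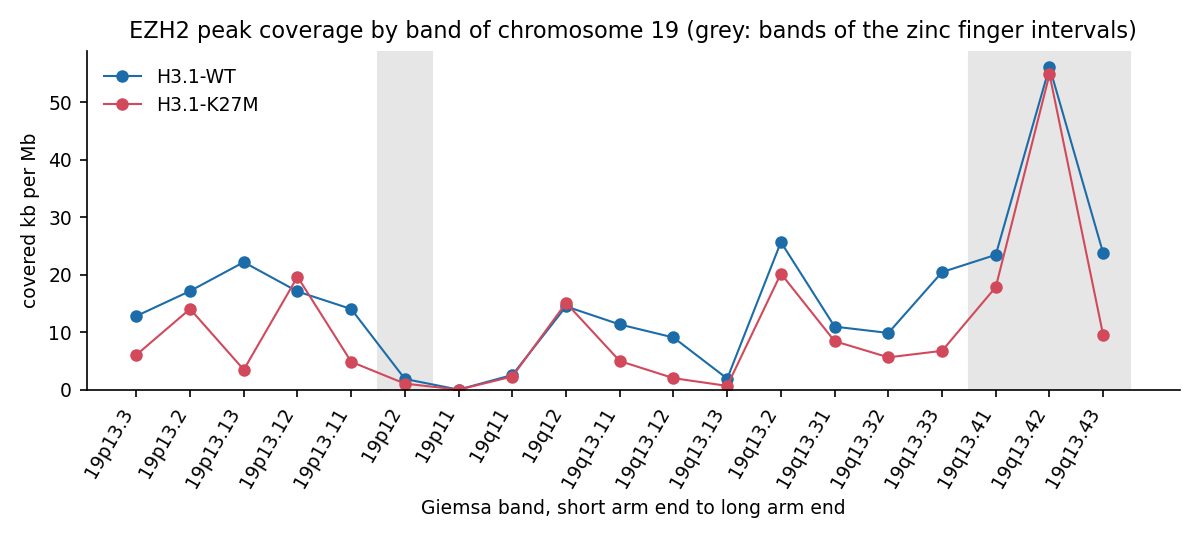
Covered kb per Mb in each Giemsa band of chromosome 19, ordered from the short-arm end to the long-arm end, 1 point per list. Grey marks band 19p12, which makes up nearly all of the proximal cluster, and the 3 bands of the distal cluster. Band 19q13.42 is highest at 56.2 and 54.9 kb per Mb, and 19p12 is at 1.86 and 1.04 kb per Mb.

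By windows of 1 Mb, the maximum lay from 55000001 to 56000000. It held 58 and 56 peaks and 86757 and 105991 covered bases, of which 49752 were shared. The next window, from 56000001, held 44 and 27 peaks and 59618 and 32612 covered bases. From 57000001 coverage dropped to 16015 and 3027 bases, with 19 and 4 peaks, and from 58000001 it was 8296 and 3399 bases. From 53000001, nearer the centromere, it was 10787 and 5016 bases. The distal excess in peaks per Mb did not rest on the densest window alone. Without it, a choice made after seeing the data, the density was still 2.12 and 2.07 times that of the rest. The excess was not found all along the interval, however. In H3.1-K27M the windows from 53000001, 57000001 and 58000001 were covered less than the rest (9.31 kb per Mb). In H3.1-WT those from 53000001 and 58000001 were below its 14.1 kb per Mb, and that from 57000001 was above it. Among all 2682 and 2533 autosomal windows of 1 Mb with a peak, the median was 9 and 6 peaks. All 7 full distal windows exceeded it in H3.1-WT, with 13 to 58 peaks. In H3.1-K27M 5 of 7 did, with a range of 4 to 56. All 4 full proximal windows were below it in both lists, with 1 to 6 and 0 to 3 peaks.

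Distal peaks differed from the rest in number far more than in shape. Median width was 876 and 756 bases, against 778.5 and 640.5 bases in the rest, and median fold enrichment was 3.49 and 3.41, against 3.62 and 3.39. Strong peaks made up 10.3% of distal H3.1-WT peaks (23 of 224; 6.94% to 14.9%) and 13.7% of those in the rest (75 of 548; 11.1% to 16.8%). In H3.1-K27M the shares were 6.06% (10 of 165; 3.32% to 10.8%) and 5.43% (20 of 368; 3.55% to 8.24%). The genome-wide shares of 6.78% and 1.87% were below those of both zones.

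The strongest distal site was a double domain in 19q13.42 present in both genotypes. In H3.1-WT its strong peaks were chr19:55951542-55956478 (fold enrichment 9.05, −log10 q 18.1) and chr19:55961286-55965582 (fold enrichment 10.5, −log10 q 21.8). In H3.1-K27M the first was covered whole by a peak of 8032 bases, chr19:55951289-55959320 (5.39 and 7.08). The second was overlapped over 2592 of its 4297 bases by chr19:55960974-55963877 (7.40 and 11.4), the strongest distal peak of that list. The third strongest H3.1-WT peak, chr19:56904275-56904991 in 19q13.43 (8.52 and 15.9), had 264 of its 717 bases in the H3.1-K27M list. The order of strength differed elsewhere: the second strongest distal H3.1-K27M peak was a narrow one, chr19:53030500-53030808 (6.31 and 8.02), lying within a moderate H3.1-WT peak of fold enrichment 4.86 and −log10 q 4.56.

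The 3 widest distal H3.1-WT peaks were not among the 3 strongest. They were chr19:56269349-56277697 (8349 bases, −log10 q 4.04), chr19:55108875-55114861 (5987 bases, 2.63) and chr19:56498260-56503843 (5584 bases, 1.63). H3.1-K27M covered 56.7%, 95.6% and 7.70% of them. In H3.1-K27M the widest was chr19:55040059-55050089 (10031 bases, −log10 q 3.90), of which 62.2% was covered in H3.1-WT by 2 separate peaks. The second widest, the peak of 8032 bases in the double domain, was also the third strongest of that list. All 4 H3.1-WT and all 6 H3.1-K27M distal peaks of at least 5000 bases were overlapped by the other list, as were 14 of 14 and 8 of 9 in the rest. The distal ones made up 9.33% and 20.4% of distal covered bases.

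Of 23 strong distal H3.1-WT peaks 19 were overlapped (82.6%), close to the 84.1% of strong peaks on the other autosomes. The 4 without a partner were chr19:52207186-52207479 (fold enrichment 6.82, −log10 q 8.68), chr19:54925707-54927673 (5.15 and 6.08), chr19:54981259-54982879 (4.501 and 5.09) and chr19:57049782-57050096 (4.27 and 5.59). All 10 strong distal H3.1-K27M peaks were overlapped, as were 96.1% on the other autosomes. The distal regions of H3.1-K27M alone with the highest fold enrichment were weaker: chr19:54023775-54024212 (4.81 and 4.05), chr19:55391451-55393206 (4.17 and 2.97) and chr19:54811526-54812918 (3.82 and 2.33).

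Outside both clusters, the strongest and widest peaks were largely common to the 2 lists. The strongest of the chromosome lay in 19q12. It was chr19:30014670-30022938, with a fold enrichment of 16.1 and a −log10 q of 48.3 in H3.1-WT, and H3.1-K27M, in which it also ranked first on the chromosome (9.51 and 17.2), covered 6154 of its 8269 bases. In 19q13.2, chr19:42023426-42030059 (10.8 and 24.5) was covered whole. Also in 19q13.2, the second widest H3.1-WT peak of the rest, chr19:41970354-41980134 (9781 bases, 4.73 and 4.25), lay inside an H3.1-K27M peak of 12217 bases (5.55 and 6.79). Among regions of H3.1-WT alone, the highest fold enrichments after that of chr19:33793058-33794529 (7.76) were 6.51 at chr19:16770714-16770988 and 6.31 at chr19:50835796-50837159. Among those of H3.1-K27M alone they were 4.72 at chr19:14897051-14897536, 4.43 at chr19:42747047-42747606 and 4.31 at chr19:9316392-9316678.

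The next comparison set the genotypes side by side in each zone. H3.1-K27M had more peaks than H3.1-WT over the whole genome, a ratio of 1.13. On the other autosomes together it had slightly fewer, 27783 against 28233. Their ratios by chromosome ran from 0.645 to 1.24, with a median of 0.915. H3.1-K27M also had fewer peaks in every zone of chromosome 19. The ratio was 0.538 in the proximal cluster (0.182 to 1.45) and 0.737 in the distal cluster (0.599 to 0.905). In the rest it was 0.672 (0.587 to 0.768). The proximal interval includes 1, so a difference was not detectable with 13 and 7 peaks. The distal ratio divided by that of the rest was 1.10 (0.856 to 1.40), and the proximal one 0.802 (0.268 to 2.19). Neither cluster could therefore be told from the rest by its ratio of peak numbers. Covered length gave ratios of 0.562, 0.792 and 0.659. The place of the distal ratios above those of the rest rested on the densest window: without 55 to 56 Mb, left out after seeing the data, they were 0.657 by peak number and 0.589 by covered length, both below the rest.

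Within these averages the ratio varied along the chromosome. By covered length, 19q13.42 had 148 kb in H3.1-K27M against 152 kb in H3.1-WT, a ratio of 0.977, while 19q13.43 had 26.7 kb against 67.1 kb, a ratio of 0.398. Of the 35 windows of 1 Mb with at least 10 kb covered in H3.1-WT, 9 had more covered length in H3.1-K27M, 1 of 7 in the distal cluster and 8 of 28 in the rest. The minimum was set on H3.1-WT, the denominator of the ratio. It therefore favours ratios below 1, and these counts cannot weigh the genotypes against each other. Among the 35, the lowest ratios were 0.0547 from 3000001 in 19p13.3, 0.0653 from 33000001 in 19q13.11 and 0.0709 from 38000001 in 19q13.13. In the first of these, 13 H3.1-WT peaks with 12777 bases stood against 2 peaks with 699 bases and no shared base. The highest of the 35 were 1.64 from 13000001 in 19p13.2, 1.39 from 43000001 in 19q13.31 and 1.28 from 32000001 in 19q13.11. Windows under the minimum had ratios on both sides of 1, such as 1.65 from 14000001 and 0.0832 from 4000001.

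Among stronger peaks the ratios were lower, as they were over the whole genome, at 0.658, 0.402 and 0.310 for minimum −log10 q values of 2, 3 and 5. For chromosome 19 as a whole they were 0.492, 0.413 and 0.303, below the genome at 2 and near it at 3 and 5. The whole-genome ratios include peaks outside the autosomes, and ratios at these minima were not computed for the other autosomes alone. With a minimum −log10 q of 2 the ratios were 0.565 in the distal cluster (0.415 to 0.763) and 0.467 in the rest (0.382 to 0.569). At 3 they were 0.477 and 0.385, and at 5 they were 0.435 (0.185 to 0.9497) and 0.267 (0.154 to 0.441). The distal ratio was above that of the rest at each minimum, with intervals that overlapped. In the proximal cluster the counts, 6 and 2 at a minimum of 2, were too small to compare.

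Whether distal peaks were shared more often than those of the rest depended on the overlap required and, for H3.1-K27M, on the minimum −log10 q set on both lists. Of distal H3.1-WT peaks 47.3% were overlapped by at least 1 base of an H3.1-K27M peak (106 of 224; 40.9% to 53.8%), against 37.4% in the rest (205 of 548; 33.5% to 41.5%) and 36.0% over the whole genome. The difference from the rest was 9.91 percentage points (2.27 to 17.5). It rested on the densest window: without 55 to 56 Mb, an alternative chosen after seeing the data, the distal share was 39.8% (32.6% to 47.4%), near that of the rest. Of distal H3.1-K27M peaks 62.4% were overlapped (103 of 165, 54.8% to 69.5%), against 54.9% in the rest (202 of 368, 49.8% to 59.9%). The whole-genome share was 31.6%, and that of the other autosomes together 34.8%, against 34.5% for H3.1-WT peaks there. The difference between the distal cluster and the rest was 7.53 points, with an interval of -1.56 to 16.2 that includes 0. With a minimum −log10 q of 2 in both lists the H3.1-K27M shares were 71.4% and 60.7% in the distal cluster and the rest. At 3 the order turned, to 54.8% (37.8% to 70.8%) and 69.6% (57.9% to 79.2%), with intervals that overlapped. The H3.1-WT shares kept their order at both minima. With the minimum set on the H3.1-K27M peaks alone, their distal share stayed above that of the rest. It was 90.0% against 74.7% at 2, and 96.8% against 88.4% at 3. With a reciprocal overlap of 50% the zones could not be told apart. The H3.1-WT shares were then 17.4% (13.0% to 22.9%) and 18.4% (15.4% to 21.9%). For H3.1-K27M they were 23.6% (17.8% to 30.7%) and 27.4% (23.1% to 32.2%). In the proximal cluster 3 of 13 (23.1%, 8.18% to 50.3%) and 3 of 7 (42.9%, 15.8% to 74.95%) were overlapped. The counts were the same by 1 base and by a reciprocal 50%, and too few to separate from either zone.

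Merging both lists gave 281 regions in the distal cluster, 704 in the rest and 17 in the proximal cluster. Of these 35.9%, 27.7% and 17.6% held peaks of both genotypes. Regions of H3.1-WT alone made up 42.0%, 48.7% and 58.8%, and regions of H3.1-K27M alone 22.1%, 23.6% and 23.5%. Merged regions were counted on chromosome 19 only, so these shares have no genome-wide level beside them. By single peaks, 36.0% and 31.6% were overlapped over the whole genome. H3.1-WT also had more peaks than H3.1-K27M in each zone, which by itself gives more regions of H3.1-WT alone. The median distal region was 1670 bases wide where both genotypes had a peak, 655.5 bases for H3.1-WT alone and 588.5 bases for H3.1-K27M alone. Of all bases covered in either list, 26.97% were covered in both in the distal cluster, 29.1% in the rest and 13.8% in the proximal cluster.

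Against the other 21 autosomes, chromosome 19 stood out by the strength and the sharing of its peaks. In H3.1-WT strong peaks made up 12.6% of all (99 of 785; 10.5% to 15.1%) and in H3.1-K27M 5.56% (30 of 540; 3.92% to 7.82%), the highest share of any autosome in both lists. On the others the shares ran from 4.26% to 9.73% and from 1.36% to 3.85%. Peak density had rank 3 of 22 in H3.1-WT, at 13.3 peaks per Mb, but rank 11 in H3.1-K27M, at 9.13. The ratio of peak numbers, 0.688, was the second lowest of the 22, above only chromosome 15. Among strong peaks alone it was 0.303, near the 0.310 of the whole genome. Of bases covered in either list, 28.3% were shared, more than on any other autosome (15.7% to 25.3%).

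The overlapped share exceeded that of the other autosomes by more for H3.1-K27M peaks than for H3.1-WT peaks. On chromosome 19, 57.0% of them were overlapped by H3.1-WT peaks (52.8% to 61.1%), against 34.8% on the other autosomes together, a difference of 22.2 percentage points (17.9 to 26.3). For H3.1-WT peaks the shares were 40.0% and 34.5%, a difference of 5.46 points (2.04 to 8.97). Nearly the same number of peaks was overlapped in each list of chromosome 19, 314 of 785 and 308 of 540. The 57.0% and the 40.0% thus differ mainly by their denominators. Because strong peaks were overlapped more often, peaks of like strength were compared too. That comparison left the density of the other list unmatched. H3.1-K27M peaks with a −log10 q from 1 to 1.5 were overlapped in 38.02% of 192 cases on chromosome 19 and in 20.4% of 12035 elsewhere, a difference of 17.6 points (11.04 to 24.7). From 2 to 3 the shares were 70.0% and 53.1%. All 30 strong H3.1-K27M peaks of the chromosome were overlapped, against 96.1% elsewhere; here and from 3 to 5 the interval of the difference includes 0.

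**Figure D4:**
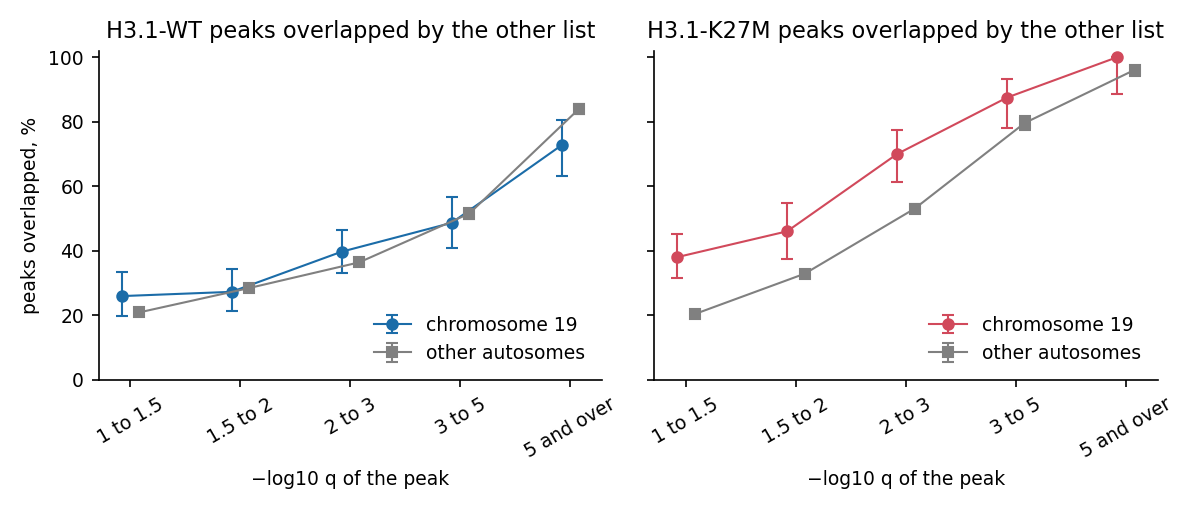
Share of peaks overlapped by the other list against peak strength (−log10 q), for H3.1-WT peaks (left) and H3.1-K27M peaks (right), on chromosome 19 (coloured) and the other autosomes together (grey). Error bars are 95% Wilson intervals. Among H3.1-K27M peaks chromosome 19 is above the other autosomes at each strength, and among strong H3.1-WT peaks it is below them, 72.7% against 84.1%.

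For H3.1-WT peaks the picture was mixed. Below a −log10 q of 5 the 4 classes of strength differed from the other autosomes by between -2.86 and 5.05 points, each with an interval that includes 0. Strong H3.1-WT peaks of chromosome 19 were overlapped less often, 72 of 99 (72.7%; 63.2% to 80.5%) against 84.1% of 1925, a difference of -11.3 points (-21.0 to -3.34). Within the chromosome the shares were 82.6% in the distal cluster (19 of 23; 62.9% to 93.0%) and 70.7% in the rest (53 of 75; 59.6% to 79.8%). Chromosomes 15, 19 and 22 had the highest shares of H3.1-K27M peaks overlapped, 51.2%, 57.0% and 48.7%, and the lowest ratios of peak numbers, 0.645, 0.688 and 0.721. The part of peak number in the sharing was not tested.

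**Figure D5:**
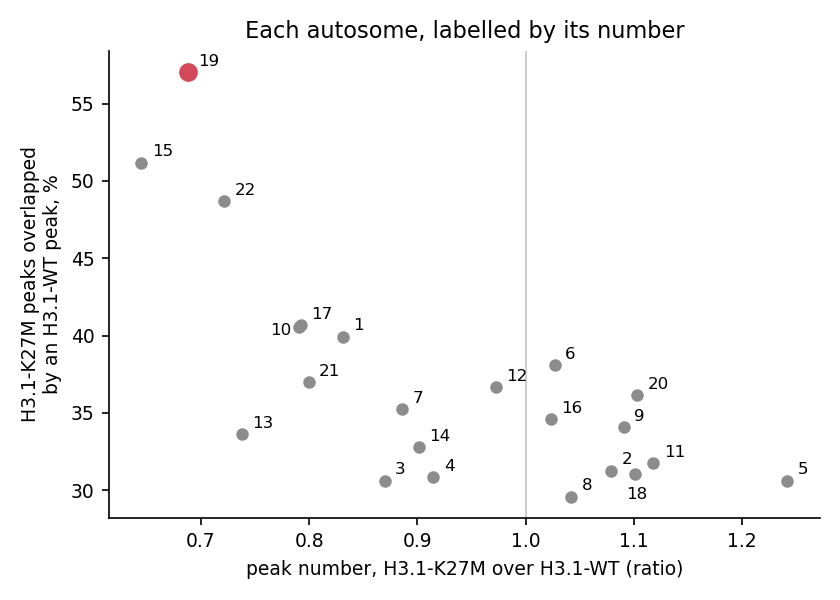
Each autosome by its ratio of peak numbers, H3.1-K27M over H3.1-WT (x axis, grey line at 1), and the share of its H3.1-K27M peaks overlapped by H3.1-WT peaks (y axis, %, not starting at 0). Chromosome 19 (red) has the highest share, 57.0%, and the second lowest ratio, 0.688.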

How the data were processed

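Peak positions and values are the authors', deposited as 1 list of broad peaks per genotype, each called for 1 EZH2 library against 1 HRP library, as the peak names in the lists show. MACS2, Bowtie2 2.3.5.1, cutadapt, deepTools and Picard are listed in the submitters' processing notes, as is the build hg19, with no role or parameter. Fold enrichment is a ratio of EZH2 signal over background that the authors deposited. The −log10 q and −log10 p values are also as the authors deposited them, and so is the peak score, which was not used. No peak ended past an hg19 chromosome end (0 peaks).

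Starts were converted to 1-based positions. A peak belonged to the zone of its midpoint; covered bases were clipped to the zone. Overlap meant at least 1 shared base. Shares carry 95% Wilson intervals, ratios of peak numbers conditional exact intervals, densities exact Poisson intervals, and differences of shares intervals built from the Wilson bounds. The code was checked against bedtools 2.31.1 on lists of known overlap. Bands came from circlize 0.4.16, whose 24 chromosome ends equal those in GenomeInfoDb 1.38.1. Computation used R 4.3.3, scipy 1.17.1, pandas 2.3.3, Python 3.11.15, matplotlib 3.10.9 and numpy 2.4.6.

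Zones, comparisons and the rule for named regions were chosen with earlier results of these data known. The rule took, per zone, the 3 widest and the 3 highest −log10 q peaks of each list, the 3 regions of 1 genotype alone with the highest fold enrichment, and windows of 1 Mb by covered length or ratio. Strong peaks without a partner and peaks of low fold enrichment were picked after their values were seen. Regions of repeats or poor mapping were not masked. The closing section gives the alternatives tried.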

Additional observations from a re-analysis of the deposited data

How the results depend on the processing

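Ratios of peak numbers and of covered length stayed below 1 in all zones under all alternatives run, and the density of the proximal cluster stayed below and that of the distal cluster above the rest. All alternatives for the density were added after seeing the data. Of 110 alternative values 87 lay within the main interval (for covered length, within 1.5 times) and 23 did not. A stricter minimum leaves fewer peaks to overlap by construction; otherwise the cause was not tested. With a minimum −log10 q of 2 in both lists, the peak ratio was 0.565 in the distal cluster and 0.467 in the rest, the proximal covered ratio 0.304, the overlapped share for H3.1-WT 29.9% in the rest, and for H3.1-K27M 71.4% and 60.7% in the distal cluster and the rest. At 3 the peak ratios were 0.477 and 0.385 and the H3.1-WT shares 27.7% and 25.7%. The H3.1-K27M share was then 54.8% in the distal cluster and 69.6% in the rest, the reverse of the main order. In the proximal cluster 0 of 3 and 0 of 2 peaks were overlapped (0%). At 5, an alternative added after seeing the data, the peak ratios were 0.435 and 0.267, and the proximal cluster, with 1 and 0 peaks left, was not compared. A reciprocal overlap of 50% lowered the H3.1-WT shares to 17.4% and 18.4% and the H3.1-K27M shares to 23.6% and 27.4% in the distal cluster and the rest. Joining peaks within 5000 bases raised the distal H3.1-K27M share to 71.6%. Without 55 to 56 Mb, also added later, the distal H3.1-WT share was 39.8% and the distal density 2.12 and 2.07 times that of the rest. Equal list lengths (31077 peaks each), borders moved in by 0.5 Mb and leaving out peaks of at least 10000 bases moved no value outside its interval. No paired analysis was possible because the genotypes have 1 EZH2 library apiece. Peak numbers and strengths also depend on a depth that is unknown.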
